A study of Homo sapiens with 9 samples.

Results

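Promoter regions at which ARID1A and ARID2 peaks overlapped, with no ARID1B peak, were examined in HepG2 cells. Regions were chosen by pooling the 3 ARID peak lists, merging peaks that shared at least 1 bp, and keeping merged regions with an ARID1A peak, an ARID2 peak, no ARID1B peak and at least 1 peak of the deposited promoter class. Of 25247 merged regions, 14609 held a promoter peak and 2714 met the rule. HepG2 is an established human liver cancer line, and the study used ChIP-seq to map 4 subunits of SWI/SNF, a chromatin remodeling complex. All libraries came from formaldehyde-fixed cells whose chromatin was digested with micrococcal nuclease. The labels gave 2 replicate libraries for each of the ARID1A, ARID1B, ARID2 and SNF5 antibodies and 1 input library, and no treatment or genotype differed between them. The authors merged both replicates before calling peaks, so each subunit had 1 peak list with no replicate error, no read count and unknown depth.

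SWI/SNF complexes use ATP to slide or evict nucleosomes. The BAF form carries either ARID1A or ARID1B, the PBAF form carries ARID2 together with PBRM1, and SNF5 (also BAF47 or SMARCB1) is a core subunit of both forms. A region with ARID1A and ARID2 peaks is therefore one where subunits of separate forms of the complex were both mapped. The assay reads a population of cells, so presence on the same DNA molecule was not measured.

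The 6 segments shared by an ARID1A and an ARID2 peak below show the DNA under such a region. They are those with the highest SNF5 scores among 177 members with 1 peak of each ARID and a shared segment of 60 to 200 bp that lay upstream of the annotated start, outside annotated exons. Positions are in hg19 (GRCh37), and each sequence runs 5′ to 3′ on the strand of the gene. Capitals mark exact matches to the motifs searched below, which in these segments were the GC box GGGCGG, the ETS site CCGGAAG and the E-box CACGTG, on either strand.
SLC44A1, a choline transporter gene, chr9:108006699-108006790, plus strand: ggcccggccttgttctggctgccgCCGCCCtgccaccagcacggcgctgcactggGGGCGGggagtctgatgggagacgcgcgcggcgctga
GGA1, a Golgi adaptor gene, chr22:38004523-38004705, plus strand: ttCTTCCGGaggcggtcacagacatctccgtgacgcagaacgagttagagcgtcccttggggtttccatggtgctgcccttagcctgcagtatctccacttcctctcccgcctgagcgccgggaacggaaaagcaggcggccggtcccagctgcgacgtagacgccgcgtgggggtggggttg
ACTN4, an actin cross-linking protein gene, chr19:39138139-39138288, plus strand: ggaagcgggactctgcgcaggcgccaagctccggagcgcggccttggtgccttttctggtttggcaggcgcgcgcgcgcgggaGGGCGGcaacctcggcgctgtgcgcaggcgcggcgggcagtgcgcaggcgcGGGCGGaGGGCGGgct
PAM16, a mitochondrial import motor gene, chr16:4401325-4401459, minus strand: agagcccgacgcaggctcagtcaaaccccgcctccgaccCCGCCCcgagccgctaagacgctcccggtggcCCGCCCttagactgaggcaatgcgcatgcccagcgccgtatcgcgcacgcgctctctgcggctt
ZNF461, a zinc finger gene, chr19:37157757-37157832, minus strand: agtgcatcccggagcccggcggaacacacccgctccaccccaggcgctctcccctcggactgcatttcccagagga
HINFP, a regulator of histone H4 genes, chr11:118992009-118992118, plus strand: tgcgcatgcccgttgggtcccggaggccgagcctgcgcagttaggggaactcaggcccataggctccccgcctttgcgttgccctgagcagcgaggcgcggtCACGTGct
The GC content of these segments ran from 63.9% at GGA1 to 77.3% at ACTN4. GC boxes were matched 3 times at ACTN4 and 2 times each at SLC44A1 and PAM16, GGA1 held 1 ETS site, HINFP held 1 E-box, and ZNF461 held no match. Their SNF5 scores ran from 38 at HINFP to 44 at SLC44A1, against a median of 23 over the members with an SNF5 peak.

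The 2714 regions held 2783 ARID1A and 2858 ARID2 peaks, and 2523 of them consisted of 1 peak of each. The remaining 191 held up to 5 peaks. All 5641 peaks carried the deposited label Multiple, and 19 ARID1A and 25 ARID2 peaks had a class other than promoter. The regions were 449 bp wide at the median (quartiles 306 and 656 bp), ranged from 59 to 3171 bp and covered 1403 kb. The ARID1A peaks in them had a median width of 315 bp and the ARID2 peaks of 242 bp. Peaks at promoters with ARID1A alone or ARID2 alone had median widths of 176 and 158 bp. The ARID1A peak was the wider of the pair in 1677 regions (61.8%) and the ARID2 peak in 1029. These widths belong to the contrast by which the regions were selected, and are a description.

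Within a region the peaks were more often offset than nested. Staggered pairs made up 1486 regions (54.8%), the ARID2 peak lay inside the ARID1A peak in 820 (30.2%), and the ARID1A peak lay inside the ARID2 peak in 408 (15.0%). The shared segment had a median length of 144 bp (quartiles 73 and 246 bp), which was 50.3% of the ARID1A peak and 69.5% of the ARID2 peak at the median. In 933 regions (34.4%) the overlap covered at least 50% of both peaks, and in 71 regions it was 10 bp or less.

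The longest shared segments lay at genes of varied function. At ARHGAP5, 2 ARID1A peaks and 1 ARID2 peak made up the widest region (3171 bp, chr14:32545521-32548691), and the longer ARID1A peak lay inside the ARID2 peak over its whole 1687 bp. FBXO33, an F-box protein gene, shared 1076 bp, and PPM1D, a phosphatase gene of the p53 response, shared 1027 bp. BABAM2 (BRCA1-A complex, deposited as BRE), SUMO2 (a ubiquitin-like modifier) and SAMHD1 (a dNTP hydrolase) shared 988, 973 and 939 bp. SNF5 peaks overlapped all 6 of these regions, with scores of 21 to 28. The nearest ARID1B peak was 644 bp away at PPM1D and 1269 bp away at SAMHD1, the shortest gaps among the 6, while at FBXO33 it was 164753 bp away.

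At the edge of the rule, 8 regions shared exactly 1 bp. The 3 of them with the lowest start coordinates among the shortest were AC006273.5 at chr19:781881-782422, ALKBH7 (a mitochondrial dioxygenase gene) at chr19:6372740-6373291 and SELENOW (a selenoprotein gene, deposited as SEPW1) at chr19:48281670-48282072. Just outside it, ARID1A and ARID2 promoter regions touched without a shared base at XPOT (tRNA export), at SLC38A3 (an amino acid transporter) and at a pair on chromosome 6 with no protein-coding start within 1000 bp. Neighboring promoter regions with ARID1A alone and ARID2 alone lay at most 10 bp apart in 44 cases and at most 200 bp apart in 593. The absence of ARID1B was also a matter of distance. An ARID1B peak lay within 200 bp of 139 members (5.12%), within 1000 bp of 370 (13.6%) and within 10000 bp of 729 (26.9%). The share within 1000 bp was lower than at promoter regions with ARID1A alone (16.35%) or ARID2 alone (19.28%). Of 2772 gene names the authors assigned to member peaks, 661 (23.8%) also had an ARID1B peak assigned to them elsewhere.

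The question of whether the core subunit was mapped at the same regions was answered from the SNF5 list, which the rule did not use. SNF5 peaks overlapped 2379 of 2714 ARID1A and ARID2 regions, or 87.7% (Wilson 95% interval 86.4 to 88.8, counting error only). The share was 97.0% of 1388 promoter regions with all 3 ARIDs, 58.4% of 4673 with ARID1A alone and 51.1% of 4062 with ARID2 alone. The members differed by −9.32 percentage points from all 3 ARIDs (interval of the difference −10.8 to −7.74), by 29.2 points from ARID1A alone (27.3 to 31.1) and by 36.5 points from ARID2 alone (34.5 to 38.5). Two-sided Fisher exact tests, adjusted over 18 comparisons, gave odds ratios of 0.222 (adjusted p = 9.488e-26), 5.05 (adjusted p = 6.649e-165) and 6.79 (adjusted p = 2.402e-229). The direction was the same on 21 of 21 chromosomes with at least 20 regions in both classes for ARID1A alone and for ARID2 alone, and on 17 of 18 for all 3 ARIDs. These tests compare lists of regions, not conditions, and neighboring regions are not replicates.

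Width moved with SNF5 overlap, since the median width was 449 bp here, 760 bp with all 3 ARIDs, 176 bp with ARID1A alone and 158 bp with ARID2 alone. When compared in 5 strata of width, odds ratios were 0.468 against all 3 ARIDs, 2.23 against ARID1A alone and 3.06 against ARID2 alone. Over the same central 300 bp of every region, SNF5 peaks were present at 86.0%, 95.8%, 62.0% and 56.3% of the 4 classes. The plot of shares by region class shows these values beside the other measures.

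**Figure D1:**
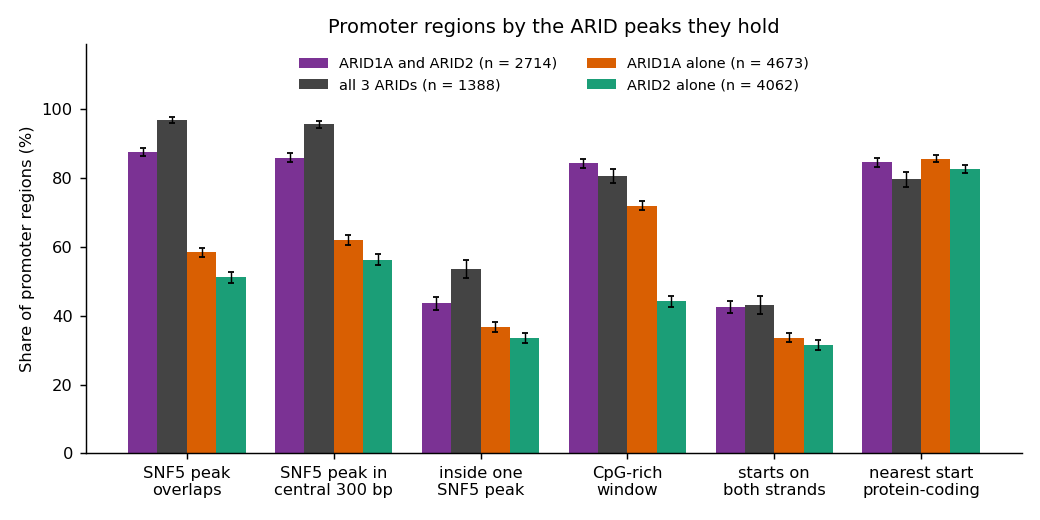
Share of promoter regions (y axis, percent) with each of 6 features (x axis) in 4 classes of promoter region, where bars are shares and error bars are Wilson 95% intervals. SNF5 overlap was 87.7% in the ARID1A and ARID2 regions, between 97.0% with all 3 ARIDs and 58.4% or 51.1% with ARID1A or ARID2 alone, while CpG-rich windows were most frequent in the ARID1A and ARID2 regions (84.3%).

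A stricter measure asked whether 1 SNF5 peak held the whole region. This was so for 43.7% of the ARID1A and ARID2 regions, against 53.6% with all 3 ARIDs (odds ratio 0.671, adjusted p = 2.829e-09), 36.8% with ARID1A alone (odds ratio 1.33, adjusted p = 9.451e-09) and 33.6% with ARID2 alone (odds ratio 1.53, adjusted p = 1.34e-16, Fisher exact tests). When peaks up to 1000 bp apart were joined, the comparison with ARID1A alone turned to an odds ratio of 0.923 (adjusted p = 0.276, Fisher exact test). SNF5 scores at overlapped regions had medians of 23 in the members, 26 with all 3 ARIDs, and 21 with either ARID alone, and were not tested.

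SNF5 overlap varied with how far the ARID peaks coincided. With regions ranked into 4 groups of equal size by shared length, it was 79.97% (76.8 to 82.8) in the group sharing 1 to 73 bp, 86.0% and 87.5% in the middle groups, and 97.2% (95.7 to 98.2) in the group sharing 246 to 1687 bp. Median region width went from 331 to 677 bp over the same groups, and its part in the difference was not tested. CpG-rich regions carried SNF5 in 88.6% of cases and the others in 82.4%. Regions with an ARID1B peak within 1000 bp carried it in 92.4%, and those without in 86.9%. Across the 21 chromosomes with at least 20 members, the share ran from 79.3% on chromosome 5 to 97.5% on chromosome 20.

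**Figure D2:**
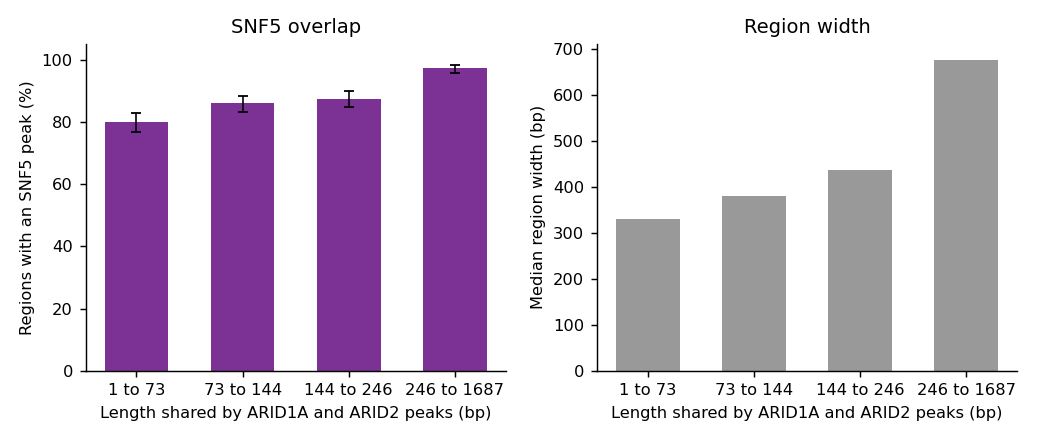
ARID1A and ARID2 regions in 4 groups of equal size by the length shared by the pair of peaks (x axis, bp): left, percent overlapped by an SNF5 peak with Wilson 95% intervals; right, median region width in bp. SNF5 overlap was 79.97% in the group with the shortest shared segments and 97.2% in that with the longest, whose regions were also the widest (median 677 bp).

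The 6 highest SNF5 scores fell on regions of 295 to 858 bp, of which 3 were wider than the upper quartile of the members (656 bp) and OPA1 was narrower than the lower one (306 bp). OPA1, which encodes a mitochondrial fusion GTPase, had a score of 75 at a region of 295 bp (chr3:193310775-193311069), and SUMF2, a sulfatase-modifying factor gene, had 68. CCNI (cyclin I) followed with 64, ZNF583 (a zinc finger gene) with 63, MRPL40 (a mitochondrial ribosomal protein) with 59 and SMG9 (nonsense-mediated decay) with 57. At ZNF583, MRPL40 and SMG9 the SNF5 peak was 232, 364 and 345 bp wide, narrower than the median of 964 bp over the members with an SNF5 peak. No SNF5 peak overlapped 335 members. These regions had a median width of 322 bp and a median shared segment of 97 bp, against 473 and 151 bp for the others. An SNF5 peak lay within 1000 bp of 164 of them (49.0%) and within 100 bp of 49 (14.6%).

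DNA sequence, which the rule did not use, differed between the ARID1A and ARID2 regions and those with 1 ARID, most of all from ARID2 alone. CpG-rich windows, defined as 300 bp around the region midpoint with GC of at least 50% and an observed over expected CpG of at least 0.6, were found at 84.3% of members (82.9 to 85.6). The shares were 80.7% with all 3 ARIDs (odds ratio 1.28, adjusted p = 0.00509), 72.0% with ARID1A alone (2.08, adjusted p = 7.686e-34) and 44.2% with ARID2 alone (6.76, adjusted p = 2.499e-254, Fisher exact tests). When compared in 5 strata of width, odds ratios were 1.45 against all 3 ARIDs, 1.395 against ARID1A alone and 5.87 against ARID2 alone. Around all 19856 canonical protein-coding starts the share of CpG-rich windows was 68.2%. The difference from all 3 ARIDs was lost with 1 peak of each ARID (odds ratio 1.20, adjusted p = 0.0703) and with a CpG ratio of at least 0.7 (1.16, adjusted p = 0.0547, Fisher exact tests), and held on 11 of 18 chromosomes. The median GC content was 66.7% in the members, 66.3% with all 3 ARIDs, 66.7% with ARID1A alone and 55.3% with ARID2 alone.

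Annotated transcript starts on both strands lay within 1000 bp of the midpoint of 42.6% of members. This exceeded ARID1A alone by 8.96 points (33.6%, odds ratio 1.46, adjusted p = 3.349e-14) and ARID2 alone by 10.97 points (31.6%, odds ratio 1.61, adjusted p = 9.477e-20, Fisher exact tests). Against all 3 ARIDs (43.2%) the difference was −0.599 points with an interval of −3.81 to 2.59 and was not significant (adjusted p = 0.714, Fisher exact test). The nearest start belonged to a protein-coding gene for 84.6% of members, 79.7% with all 3 ARIDs (adjusted p = 0.000107), 85.7% with ARID1A alone (adjusted p = 0.233) and 82.7% with ARID2 alone (adjusted p = 0.0433, Fisher exact tests). The last difference, 1.92 points, lost significance under 4 alternatives, including the comparison within strata of width (odds ratio 1.11).

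A canonical protein-coding start lay within 1000 bp of 2373 members (87.4%). On these, the region spanned the start in 1576 cases (66.4%) and the shared segment did so in 797 (33.6%). Both ARIDs centered just upstream of the start. The ARID1A midpoint had a median position of −20.5 bp (quartiles −166 and 135 bp) and lay upstream at 54.1% of regions (52.1 to 56.1), and the ARID2 midpoint had a median of −42 bp (quartiles −192 and 143 bp) and lay upstream at 57.5% (55.5 to 59.5). The SNF5 midpoint had a median of −24 bp. Within the same region, ARID1A lay downstream of ARID2 in 1219 cases and upstream in 1152, which is 51.4% downstream with an interval of 49.4 to 53.4, so no fixed order of the pair was detectable. The midpoints were a median of 100 bp apart. Regions with 1 ARID were centered downstream, at a median of 41 bp for ARID1A alone (44.03% upstream) and 93.5 bp for ARID2 alone (42.8% upstream), and regions with all 3 ARIDs at −39 bp.

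**Figure D3:**
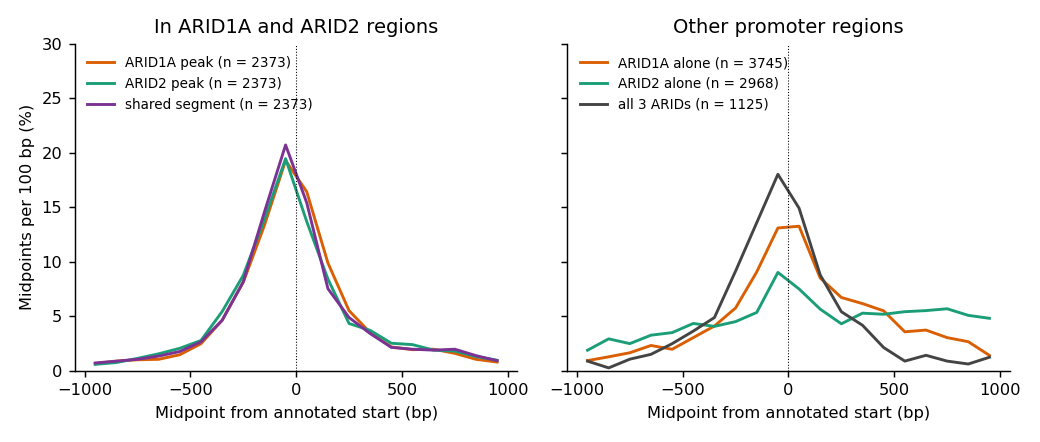
Percent of midpoints per 100 bp bin (y axis) by distance in bp from the nearest canonical protein-coding start (x axis, negative upstream), for the ARID1A peak, the ARID2 peak and their shared segment in ARID1A and ARID2 regions (left) and for whole regions of the other classes (right). ARID1A and ARID2 midpoints peak together in the 100 bp before the start, with medians of −20.5 and −42 bp, while regions with ARID2 alone are spread over the whole window.

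Exact matches to 12 short promoter motifs were counted in the same 300 bp windows on both strands, as a description. The NRF1 site GCGCATGCG, bound by an activator of mitochondrial and other housekeeping genes, was in 7.44% of member windows (6.51 to 8.49). It was in 4.97% with all 3 ARIDs, 1.52% with ARID1A alone, 1.23% with ARID2 alone and 2.38% of windows around all protein-coding starts. The cAMP response element TGACGTCA was in 3.02% of member windows, against 2.38% of all starts, and its variant TGACGCNA in 3.94% against 2.61%. The ETS site CCGGAAG was in 15.9% against 13.5%, the E-box CACGTG in 10.1% against 7.67%, the YY1 site AANATGGCG in 6.15% against 5.24% and the E2F site TTTGGCGC in 1.36% against 0.74%. The GC box GGGCGG was in 66.2% against 61.6%, and in 38.3% of ARID2 alone windows. Motifs found in fewer member windows than at all starts were the TATA box TATAAA (3.87% against 8.06%), the CCAAT box (27.9% against 32.7%), the AP-1 site TGANTCA (3.87% against 4.61%) and the ZNF143 core ACTACAA (2.36% against 2.58%). Of these motifs, NRF1 had the highest ratio of members to all starts and the TATA box the lowest. With all 3 ARIDs, the GC box was in 66.1%, the ETS site in 14.2%, the E-box in 9.80% and the YY1 site in 6.12%. The TATA box was in 5.26% with all 3 ARIDs, 4.09% with ARID1A alone and 8.27% with ARID2 alone. Differences from all starts were thus not all particular to the members. Median GC content was lower with ARID2 alone than in the other classes. The median CpG ratio was 0.840 in the members, 0.835 with all 3 ARIDs, 0.775 with ARID1A alone and 0.618 with ARID2 alone. The part of GC content and CpG ratio in these shares was not tested. The motifs do not contain one another, although the AP-1 and cAMP sites share their first letters.

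**Figure D4:**
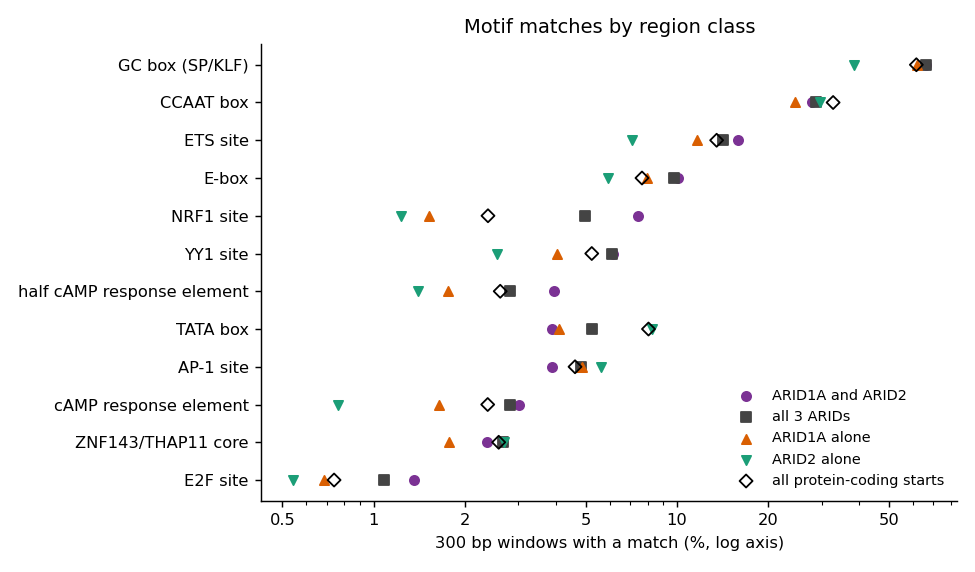
Percent of 300 bp windows with at least 1 exact match (x axis, log scale) for 12 motifs (rows) in the 4 classes of promoter region and around all canonical protein-coding starts (open diamonds). The NRF1 site stands at 7.44% in ARID1A and ARID2 regions against 2.38% at all starts. The TATA box stands at 3.87% against 8.06%, and at 4.09% with ARID1A alone.

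By gene, 2650 of 19856 protein-coding genes had an ARID1A and ARID2 region within 1000 bp of their canonical start, a background of 13.3%. Genes with a region of any of the 4 classes numbered 7929, and 33.4% of those had an ARID1A and ARID2 region. The lists below were read against both shares without a test, and the plot of shares by gene list gives all 20 lists. The highest share was that of immediate early genes, which are induced within minutes by growth factors and stress: 13 of 24 (54.2%), and 13 of the 20 with any region. Histone demethylase and methyltransferase genes followed with 17 of 40 (42.5%), and 54.8% of those with any region. Among them were KMT2A, KMT2C, KMT2D, KDM5A and EZH1. A gene could count in more than 1 class, and KMT2A also had a region with all 3 ARIDs. Immediate early genes also exceeded all protein-coding genes in the other classes. Their shares were 20.8% against 6.61% with all 3 ARIDs, 37.5% against 18.6% with ARID1A alone and 29.2% against 14.8% with ARID2 alone. CpG-rich starts were frequent in both lists, at 23 of 24 and 36 of 40.

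Of the 13 immediate early genes, FOS (chr14:75745039-75745759), FOSB, JUN and JUND encode AP-1 subunits, and their shared segments ran from 107 to 457 bp. JUN and JUND each had a pair of regions. EGR1, a zinc finger activator, shared 416 bp, and the nuclear receptor gene NR4A1 shared 272 bp. The apoptosis regulator MCL1 shared 670 bp, with an ARID1B peak 233 bp from the region, and the phosphatase gene DUSP1 shared 196 bp with an ARID1B peak 246 bp away. ATF3, a stress-induced repressor, met the rule by 1 shared base, and BTG2, an antiproliferative gene, by 32 bp. KLF10 shared 415 bp. IER2 had 2 regions, of which that upstream carried no SNF5 peak. ZFP36, whose product destabilizes mRNA of cytokines, had 2 regions of 1105 and 448 bp and no SNF5 peak at either. SNF5 peaks with scores of 18 to 31 overlapped the other immediate early regions. The farther regions at JUND, ZFP36 and IER2 had shared segments centered 1700, 1309 and 2194.5 bp downstream of the canonical start. They lay beyond the 1000 bp used to count genes, and each of these genes was counted by its nearer region. DUSP1 also had a region with all 3 ARIDs. FOSL2, JUNB, IER3 and SRF had regions with all 3 ARIDs instead, and FOSL1, EGR3, KLF2 and KLF4 had no region of the 4 classes.

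Genes of the complex itself were among the members. ARID1A, ARID2, SMARCB1 (which encodes SNF5), SMARCC1, SMARCC2, SMARCD2, SMARCE1, PBRM1 and ACTL6A made up 9 of 28 SWI/SNF subunit genes (32.1%), and 45.0% of the 20 with any region. Subunit genes also exceeded all protein-coding genes in the other classes. With ARID2 alone they were at 35.7% against 14.8%, and with all 3 ARIDs at 17.9% against 6.61%. With ARID1A alone they were at 7 of 28, against 18.6% of all genes. The excess was thus not particular to ARID1A and ARID2 regions. All 28 starts were CpG-rich. At ARID1A the whole ARID1A peak of 75 bp lay inside the ARID2 peak (chr1:27022014-27022238), and at ARID2 the whole ARID2 peak of 56 bp lay inside the ARID1A peak (chr12:46122772-46123321). SMARCC1 had the longest shared segment of the group (742 bp), followed by SMARCB1 (278 bp) and PBRM1 (236 bp). ACTL6A, an actin-related subunit, had no SNF5 peak, and scores at the others ran from 18 to 28. SMARCD2 also had a region with all 3 ARIDs. SMARCA4, an ATPase of the complex, had regions with all 3 ARIDs and with ARID2 alone, and ARID1B had a region with ARID2 alone. SMARCA2, BRD7 and BRD9 had no region of the 4 classes.

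Housekeeping lists lay above the background of all genes. Cytoplasmic ribosomal proteins had 31 of 86 genes (36.0%), including RPLP0, RPL3, RPS6 and RPSA. Cytoplasmic tRNA synthetases had 7 of 20 (35.0%), spliceosome proteins 18 of 59 (30.5%), Mediator subunits 8 of 28 (28.6%) and mitochondrial ribosomal proteins 22 of 78 (28.2%). Among listed genes with any region, these shares were 45.6%, 43.8%, 39.1%, 42.1% and 38.6% in the same order. Cytoplasmic ribosomal proteins were at 9.30% with all 3 ARIDs, 33.7% with ARID1A alone and 27.9% with ARID2 alone. All protein-coding genes were at 6.61%, 18.6% and 14.8%, so the excess was not particular to ARID1A and ARID2 regions. Against the 33.4% among genes with any region, complex I and ATP synthase genes (24.4%), proteasome subunits (7 of 28) and translation initiation factors (27.5%) were lower. Zinc finger ZNF genes had 77 of 504 (15.3%) and solute carriers 42 of 367 (11.4%).

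Genes of plasma proteins, the main secreted products of hepatocytes, had an ARID1A and ARID2 region at 0 of 48, which allows a share of up to 6.25%. Regions of the other classes were present at 24 of these genes, with ARID1A alone at 16 (AFP, SERPINA1 and C3 among them), ARID2 alone at 11 and all 3 ARIDs at 6 (APOB, APOH, AHSG, RBP4, ORM1 and ORM2). Of their starts, 6.25% were CpG-rich. Hepatocyte transcription factor genes had 6 of 26 (23.1%), and 35.3% of the 17 with any region. FOXA1 and FOXA2, pioneer factors, shared 104 and 125 bp and had ARID1B peaks 374 and 27 bp away. CEBPB shared 190 bp, TBX3 233 bp and ESRRA 235 bp. FOXA1, FOXA2 and CEBPB also had regions with all 3 ARIDs. At HNF4A, the nuclear receptor that governs hepatocyte identity, 2 regions were assigned by the authors. Their shared segments were centered 45239.5 and 46242.5 bp downstream of the canonical start used here, and the farther one (chr20:43030542-43030689) had no SNF5 peak. Both held a peak of the deposited promoter class, so the distance depends on which start is taken. HNF4A was not counted among the 6 of 26 for this reason. Olfactory receptor genes, which act mainly in the nose, had 0 of 389, which allows a share of up to 0.771%.

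**Figure D5:**
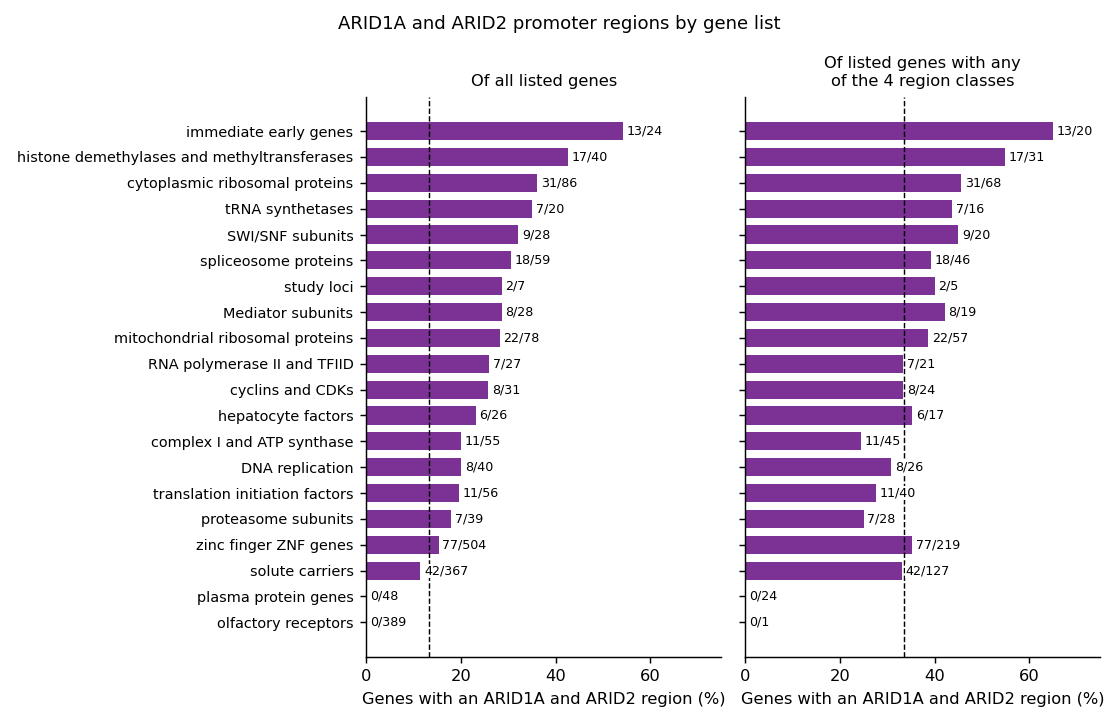
Percent of genes with an ARID1A and ARID2 region within 1000 bp of the canonical start (x axis) for 20 gene lists (rows), over all listed genes (left) and over listed genes with a region of any of the 4 classes (right), with counts beside the bars. Dashed lines mark all protein-coding genes (13.3%) and all genes with any region (33.4%), and immediate early genes stand highest in both panels (13 of 24 and 13 of 20).

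A short list of loci was drawn from those the paper examined singly, and it leaves out others, such as further qPCR genes. Of the 7 listed loci, 2 had an ARID1A and ARID2 region within 1000 bp of the start. MCM7, a qPCR gene outside the list, also had such a region. The region at the proto-oncogene MYC was 240 bp wide, with a shared segment of 92 bp centered 6 bp downstream of its start (SNF5 score 22) and an ARID1B peak 1391 bp away. The small GTPase gene RRAS had a region of 652 bp (202 bp shared, SNF5 score 19), with the nearest ARID1B peak 153043 bp away. MYC also had regions with ARID1A alone and with ARID2 alone. KLF6 had a region with all 3 ARIDs, EPHA2 with ARID1A alone and SPOCK2 with ARID2 alone. S100A14 and TNS4 had no region of the 4 classes. The paper describes every ARID as bound near the MYC start, and in the promoter and first intron of EPHA2. Here, a gene was counted only for called peaks within 1000 bp of 1 canonical start. The 4 classes also leave out regions with ARID1B alone or with ARID1B and 1 other ARID. Whether these rules account for the difference from the paper was not tested. Most gene names had 1 member region (2613 of 2772), 145 had 2, and 14 had 3 or more. ELF2, an ETS factor gene, had 4, and ACLY, EFCAB2, HIVEP2, KCTD7, NOTUM, SEPT9, SLC16A3, SLC20A2, U1, UBTF, VAT1, WBP2 and ZNF503-AS2 had 3 each. U1 names a repeated small RNA gene, and its 3 regions lay at separate places on chromosome 1, the first at chr1:144533860-144534266.

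The deposited chromatin state often differed between overlapping peaks, and a difference between classes in the active promoter state did not hold when 1 peak was counted per region. Of the 2714 pairs, 1441 (53.1%) had the same state, where the shares of each state in the ARID1A and ARID2 peaks multiply to 47.2%. Among the 52 pairs that overlapped by at least 90% of the wider peak, 27 (51.9%) had the same state, with a product of 49.3%, although all 52 had the same feature class. The cause was not tested. Counted on any peak, the active promoter state was present at 85.9% of members, 89.5% with all 3 ARIDs (odds ratio 0.715, adjusted p = 0.00147), 67.4% with ARID1A alone (odds ratio 2.94, adjusted p = 4.677e-72) and 65.3% with ARID2 alone (odds ratio 3.23, adjusted p = 1.389e-82, Fisher exact tests). This count takes at least 2 peaks in each member and 1 in a region with 1 ARID. On the widest ARID1A peak alone the shares were 68.4%, 64.8% and 67.4% for members, all 3 ARIDs and ARID1A alone (odds ratios 1.18 and 1.04, adjusted p = 0.0262 and 0.433, Fisher exact tests). On the widest ARID2 peak they were 63.3%, 60.2% and 65.3% for members, all 3 ARIDs and ARID2 alone (odds ratios 1.14 and 0.916, adjusted p = 0.0629 and 0.104, Fisher exact tests). The direction against all 3 ARIDs and against ARID2 alone was thus reversed, and the differences from ARID1A alone and ARID2 alone were not significant.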

How the data were processed

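Peak lists of ARID1A, ARID1B, ARID2 and SNF5 from 9 HepG2 libraries (2 per antibody and 1 input, which was not used here) were taken as deposited. By the study's methods, the authors mapped reads to hg19 using Bowtie2, filtered duplicates, merged replicates, called broad peaks with MACS2, joined close peaks, removed blacklisted regions, and assigned feature classes and genes from Gencode. Whether the input was the peak-calling control, and the source of the chromatin states, are not given in the sources used here. The deposited ARID lists hold positions, distances, classes and states. The authors deposited a score only for SNF5 peaks, used here to rank and describe them.

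Sequence came from GRCh37 and starts from Gencode v44 lifted to it, with 1 canonical protein-coding start per gene. RefSeq tables were not used for coordinates. Two-sided Fisher exact tests compared shares (scipy 1.17.1), adjusted by Benjamini-Hochberg over 18 comparisons (6 measures, 3 classes) at a threshold of 0.05, with Wilson 95% intervals and Newcombe intervals of differences. Strata of width used a Mantel-Haenszel odds ratio (statsmodels 0.14.6). Code was tested on simulated intervals and counts. Sequence was read with pysam 0.24.0.

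The members and gene lists were chosen with earlier results of these data known. Named members were the 6 longest shared segments, the 6 highest SNF5 scores, the 3 shortest segments and the 3 nearest misses, members at SWI/SNF, study-locus, hepatocyte factor and immediate early genes, and the 5 genes with most regions, with ties. Other genes named from lists, and PPP2R3B, were chosen after their values were seen. A named member of the hepatocyte factor list is not reported here.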

Additional observations from a re-analysis of the deposited data

How the results depend on the processing

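In all, 163 alternative values were computed for 21 results, 156 under alternatives listed at the outset and 7 under alternatives chosen after seeing the data (SNF5 in the central 300 bp, and the state of the widest peak). Direction and side of the threshold, or size, held for 144 of them. No paired analysis was possible because the peaks were called on merged replicates, and for the same reason no replicate could be left out. A reciprocal overlap of at least 50% left 933 members, moved the upstream share of ARID1A to 57.0%, and lost the active state difference from all 3 ARIDs (odds ratio 0.897) and the protein-coding difference from ARID2 alone (1.15). The latter was also lost with no ARID1B peak within 1000 bp (1.13), with peaks at most 500 bp from a start (1.14) and within strata of width (1.11). Joining peaks at most 1000 bp apart moved the upstream share of ARID2 to 54.5% and reversed containment in an SNF5 peak against ARID1A alone (0.923), starts on both strands against all 3 ARIDs (1.01) and protein-coding starts against ARID1A alone (1.05). Starts on both strands against all 3 ARIDs also reversed with no ARID1B peak within 1000 bp (1.00) and within strata of width (1.08). The CpG-rich difference from all 3 ARIDs weakened with 1 peak of each ARID (1.20) and a CpG ratio of at least 0.7 (1.16). On the widest ARID1A peak the odds ratio for the active state was 1.18 against all 3 ARIDs, reversed, and 1.04 against ARID1A alone, no longer significant. On the widest ARID2 peak it was 1.14 against all 3 ARIDs and 0.916 against ARID2 alone, both reversed. The cause of these changes was not tested. Depth was unknown, so the absence of an ARID1B or SNF5 peak means only that none was called.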

Other observations

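Chromosome X held 1 ARID1A and ARID2 promoter region, at PPP2R3B, a pseudoautosomal gene, and chromosome Y held 1, at the Y copy of the same gene. Of 841 protein-coding genes on chromosome X, 1 (0.119%) had such a region, against 13.3% of all protein-coding genes, and 45 (5.35%) had a region of any of the 4 classes, against 39.9%. Among autosomes, the share of genes with an ARID1A and ARID2 region ran from 7.73% on chromosome 21 to 21.0% on chromosome 16.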
